A study of Mus musculus with 6 samples.

Results

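Contacts of 2 to 10 Mb were taken from a deposited table of Hi-C interactions, which its name calls replicated and significant. They were the autosomal pairs of 5 kb bins whose centres lay at least 2 Mb apart. This gave 28,843 of the 3,443,020 autosomal pairs, out of 3,654,014 pairs in the whole table, and no pair lay more than 10 Mb apart. The table was made from P19, a mouse line of embryonal carcinoma cells that forms neurons when it is given retinoic acid. There were 3 groups of 2 libraries each: untreated cells (T0), cells after 6 h in 1e-06 M all-trans retinoic acid (ATRA; T6) and cells after 48 h in the same dose (T48). No untreated cells were sampled at 6 h or 48 h, so ATRA and time in culture cannot be told apart. The labels do not say whether replicates came from separate cultures, so the p-values below reflect the spread of these libraries alone, which may be technical.

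Hi-C joins DNA ends that lie near each other in fixed nuclei and counts the joined ends. Contacts become rarer as the distance along the chromosome grows, and most of those within a chromosome lie inside topological domains, which are shaped by cohesin and CTCF. Contacts over megabases are commonly seen between regions of the same compartment, active with active or inactive with inactive, and between distant sites bound by Polycomb proteins in pluripotent cells. Pairs of segments that are similar in sequence, or that have been brought together by a rearranged chromosome, can also hold high counts between places that the reference sets far apart.

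The deposited counts are read pairs per bin pair and library. A pair has counts in both replicates of a time point or 0 in both, and the lowest count was 3. A 0 was therefore read as not listed at that time, not as an absent contact. How significance was called is not stated, so listing may depend on more than the count. Listing applies to a time point and not to a library, so numbers and overlaps of listed contacts carry no replicate error. Listed autosomal counts summed to 21,935,326 to 47,648,811 per library, more in replicate 1 at each time. The sum covers listed pairs only, so sequencing depth is unknown. Gene names, which would need an mm9 annotation, were not assigned, and positions are in build mm9 with bins counted from 1.

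Most contacts from 2 Mb were listed once and were close to the lowest count. At T0 9627 were listed, at T6 8558 and at T48 14,478, which was 0.531%, 0.559% and 0.839% of each autosomal list. The T48 list held 1.504 times the T0 number although it was the shorter list over all distances, with 1,726,335 against 1,812,521 autosomal pairs. Of all members, 26,280 (91.1%) were listed at 1 time, 1306 (4.53%) at 2 times and 1257 (4.36%) at all 3 times. Those listed at 1 time comprised 7393 in T0, 6401 in T6 and 12,486 in T48. The median count was 3 in every library, and 69.8% to 77.0% of the members listed in a library had a count of 3 or 4.

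A small part of the members held very high counts, and these were described apart. A focal pair was defined as a member whose count was at least 10 times the lowest count listed for its distance class (steps of 0.5 Mb) and library, in both replicates of a time. There were 196 focal pairs, of which 194 were listed at all 3 times. Just inside the threshold, 48 members reached 10 to 12 times the lowest count, and just outside it 65 members reached 8 to 10 times. A focal window was a 1 Mb window with anchors of at least 5 focal pairs. The 19 focal windows lay on 8 chromosomes (1, 3, 4, 7, 8, 11, 12 and 14) and held 157 focal pairs, which leaves 39 elsewhere. With an anchor in a focal window there were 3111 members, or 10.8% of all, but 63.2% of the members listed at all 3 times and 6.29% of those listed at 1 time. The choice of these windows used the counts, so their high counts are a description.

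Outside focal windows, 25,732 contacts remained, and T48 was the time with the most. There were 7783 in T0, 6801 in T6 and 12,716 in T48, so T6 had 0.874 times and T48 1.63 times the T0 number. In focal windows the numbers were 1844, 1757 and 1762, and T48 had 0.956 times the T0 number. The larger number at T48 was therefore found outside focal windows and not in them. Contacts outside focal windows are called scattered below. The name covers the remaining 39 focal pairs and some clusters of neighbouring pairs too, so not all of them are isolated or low in count. Pairs of 1 to 2 Mb, the next shorter class, had a T48 to T0 ratio of 1.49. When a count of at least 1.5 times the lowest was required in both replicates, 647, 585 and 1107 scattered contacts were left, and the T48 to T0 ratio was 1.71. This stricter list outside focal windows was chosen after the data were seen. The planned stricter list, over all contacts from 2 Mb, held 1638 in T0 and 1931 in T48, a smaller ratio of 1.18.

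The excess of scattered contacts at T48 was present at each distance and was smaller at longer ones. The T48 to T0 ratio was 1.68 at 2 to 2.5 Mb, 1.77 at 2.5 to 3 Mb, 1.63 at 3 to 4 Mb, 1.54 at 4 to 5 Mb, 1.496 at 5 to 7.5 Mb and 1.43 at 7.5 to 10 Mb. In focal windows the same ratio lay between 0.864 and 1.26 over the 6 classes, with no order by distance.

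**Figure D1:**
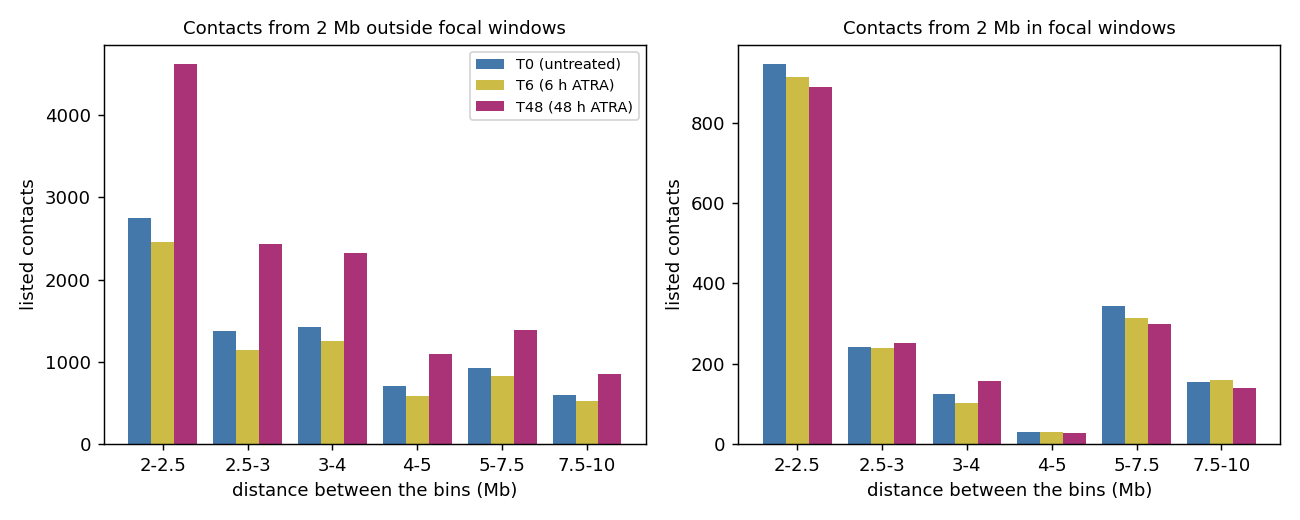
Number of listed contacts (y axis) by distance between the bins in Mb (x axis) at T0, T6 and T48, outside focal windows on the left and in focal windows on the right, on different scales. Outside focal windows the T48 bar is the highest in each class, from 4623 contacts at 2 to 2.5 Mb to 851 at 7.5 to 10 Mb, and in focal windows T48 is the highest in 2 of the 6 classes, at 2.5 to 3 Mb (251) and 3 to 4 Mb (157).

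The excess was also present on each chromosome. Outside focal windows the T48 to T0 ratio was above 1 on 19 of 19 autosomes, from 1.34 on chromosome 14 to 2.00 on chromosome 1. The T6 to T0 ratio was below 1 on 18 autosomes and was 1.01 on chromosome 19, with the lowest value of 0.765 on chromosome 15. The T48 excess is thus not carried by a few chromosomes in these lists. Chromosome 14 was the densest in scattered contacts at each time: it held 11.2% of them in T0, 10.8% in T6 and 9.19% in T48, against 4.92%, 5.06% and 5.18% of the autosomal lists. Among 258 windows of 10 Mb, the 4 with the most scattered contacts were all on chromosome 14, from 80,000,001 to 120,000,000. The window from 90,000,001 to 100,000,000 was first, with 248 contacts in T0, 206 in T6 and 320 in T48.

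**Figure D2:**
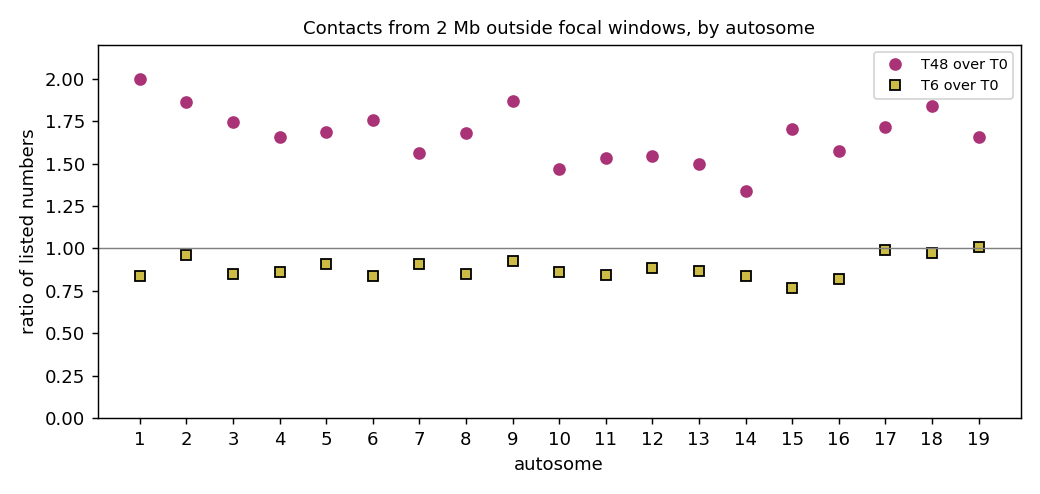
Ratio of the number of listed contacts outside focal windows (y axis, starting at 0) for T48 over T0 (circles) and T6 over T0 (squares) on each of the 19 autosomes (x axis). The line marks a ratio of 1: all 19 circles lie above it, between 1.34 and 2.00, and 18 of the 19 squares lie below it.

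The counts give a share for each library, but this share is bound to the list of its time. A pair adds counts to both replicates of a time or to neither, so a longer list adds to both. The mean count per listed scattered contact was 4.47 and 4.72 in T0 (replicates 1 and 2) and 4.19 and 4.16 in T48. Scattered contacts took 0.0730% and 0.130% of the listed autosomal count at T0 (replicates 1 and 2), 0.0808% and 0.149% at T6, and 0.129% and 0.188% at T48. Replicate 2 was above replicate 1 at each time, and the lower T48 library was just below the higher T0 library, so the groups overlapped. The means were 0.101% ± 0.0402 in T0, 0.115% ± 0.0485 in T6 and 0.159% ± 0.0418 in T48 (SD, n = 2 each). The T48 minus T0 difference of 0.0571 percentage points had p = 0.667 in an exact two-sided permutation test, adjusted to 0.727 over 12 tests, where 2 against 2 cannot go below 0.333. Within replicate 1 the T48 share was 1.77 times that at T0, and within replicate 2 it was 1.45 times. In percentage points the difference between times was of the same size as that between replicates. The summed scattered counts of the replicates were close, though. They were 34,796 and 36,765 in T0, 31,073 and 32,780 in T6, and 53,223 and 52,893 in T48 (replicates 1 and 2). With sums this close, the replicate gap in shares came arithmetically from the smaller listed totals of replicate 2. The listing itself holds the sums close. A pair is listed in both replicates or in neither, and 78.5% to 85.4% of these counts per library were 3 or 4. Their closeness is therefore no measure of agreement between replicates. The overlap of the groups and the permutation test rest on those totals too.

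In focal windows the replicates differed far more than the times did. These contacts took 0.0480% and 0.260% of the listed count in T0, 0.0609% and 0.342% in T6, and 0.0470% and 0.259% in T48. Replicate 2 was 5.42, 5.62 and 5.52 times replicate 1, while the T48 to T0 ratio was 0.978 in replicate 1 and 0.996 in replicate 2. What differed between the replicates in these windows was not tested. Outside focal windows replicate 2 was 1.78, 1.85 and 1.46 times replicate 1.

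**Figure D3:**
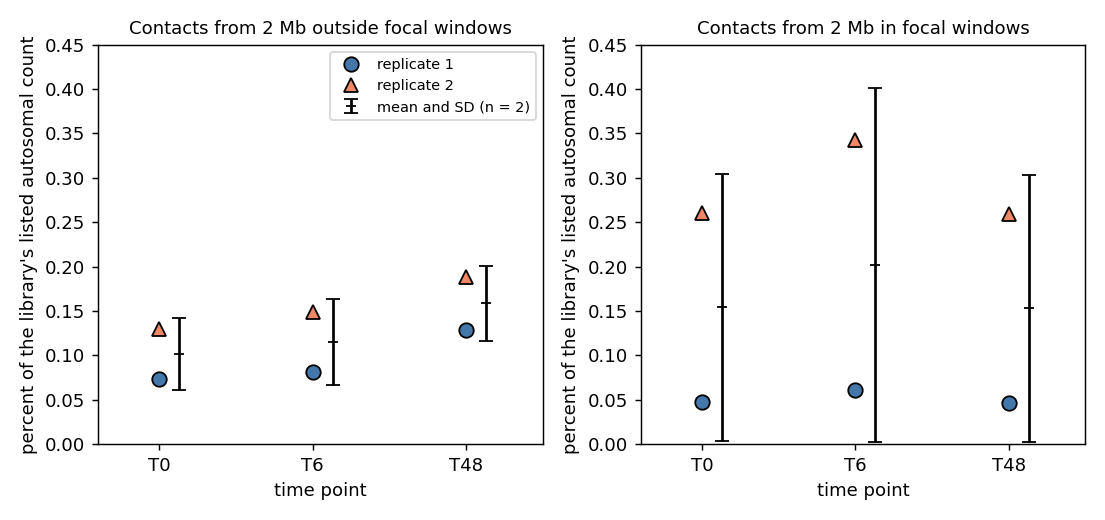
Share of a library's listed autosomal count in contacts from 2 Mb (y axis, percent) at each time (x axis), outside focal windows on the left and in them on the right, with replicate 1 as circles, replicate 2 as triangles and bars for mean and SD (n = 2). On the left the points at T48 (0.129 and 0.188) are higher than those of the same replicate at T0 (0.0730 and 0.130). On the right replicate 2 lies above replicate 1 by 5.42 to 5.62 times at each time.

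Among scattered contacts, 463 (1.799%) were listed at all 3 times and 24,627 (95.7%) at 1 time. Those listed at all 3 times spanned longer distances, with a median of 4.185 Mb against 2.795 Mb for those listed at 1 time. The share listed at all 3 times was 0.875% at 2 to 2.5 Mb, 0.705% at 2.5 to 3 Mb, 2.02% at 3 to 4 Mb, 1.77% at 4 to 5 Mb, 3.86% at 5 to 7.5 Mb and 6.24% at 7.5 to 10 Mb. Among pairs of 1 to 2 Mb it was 1.36%. Contacts listed throughout thus made up a larger part of a smaller number at the longest distances. Many of them were clustered, so they are not separate instances of a trend with distance. For example, 14 lay together on chromosome 5 at about 8.33 Mb and 12 on chromosome 11 at about 7.315 Mb. On chromosome 4, 1 bin had 37 of them, with a median distance of 5.235 Mb over all its contacts.

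Whether a scattered contact was listed again went with its count. Of the 7136 T0 contacts whose smaller replicate count was 3 or 4, 4.06% were also listed at T6 (95% Wilson interval 3.63% to 4.55%) and 4.02% at T48 (3.59% to 4.50%). Of 481 with a smaller count of 5 to 9, 55.1% were listed at T6 and 52.0% at T48. Of 166 with a smaller count of at least 10, 160 (96.4%, 92.3% to 98.3%) were listed at T6 and 157 (94.6%, 90.02% to 97.1%) at T48. Contacts at the lowest counts were mostly not listed again. A missing entry there cannot be told apart from a contact that just missed the limit of listing, by its count or by the call of significance. These intervals cover counting error only.

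Allowing a shift of the bins added matches, but scattered contacts also lay near others of the same time. Of the T0 contacts outside focal windows, 8.92% had the identical pair at T48, 12.4% had a pair within 5 kb on both sides, 18.3% within 25 kb and 36.4% within 100 kb. A T0 contact had another T0 contact within 5 kb in 8.56%, within 25 kb in 15.1% and within 100 kb in 30.6% of cases. In focal windows the corresponding T48 shares were 52.5%, 78.4%, 91.3% and 96.2%. There a T0 contact had another T0 contact within 5 kb in 72.0%, within 25 kb in 89.3% and within 100 kb in 95.7% of cases. The T48 shares include the identical pair, while those within T0 leave out the contact itself. The lists also differ in length, so the shares are not like measures.

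Pairs listed at all 3 times could be tested for strength, with counts in all 6 libraries. Of the 1257 members listed at all 3 times, 1055 passed the filter on low counts, 733 in focal windows and 322 outside. For T48 over T0, edgeR's quasi-likelihood test called 0 members at an adjusted p under 0.05, where 0 of all 496,203 tested pairs (0%) were called. At an unadjusted p under 0.05 there were 63 members, or 5.97%, against 5.52% of all pairs tested. Of these, 26 were higher and 37 lower at T48. The unadjusted share was 10.2% outside focal windows (33 of 322) and 4.09% in them (30 of 733). For T6 over T0 the adjusted count was also 0 (0% of all pairs), and the unadjusted count was 35 members (3.32%) against 3.17% of all pairs. For T48 over T6 it was 0 again (0% of all pairs), with 86 members (8.15%) against 5.06%, 27 higher and 59 lower. That was 12.7% outside focal windows and 6.14% in them. This fit had no replicate term. With a replicate block edgeR also called 0 members, but the unadjusted shares lay further above those of all pairs. They were 11.6% against 4.63% for T6 over T0 (88 of 122 higher) and 18.1% against 7.83% for T48 over T0 (129 of 191 lower). For T48 over T6 they were 23.4% against 7.21% (189 of 247 lower). In the fit without the block, the median standard error of a member's log2 ratio for T48 over T0 was 0.86. The median ratio was 0.05, with 10% of members below -0.92 and 10% above 0.65. Leaving out T0 replicate 2 moved that median to 1.03, leaving out T48 replicate 2 moved it to -1.03, leaving out T0 replicate 1 to -0.75 and leaving out T48 replicate 1 to 0.75, with 0 members called by edgeR in each case.

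The DESeq2 test called 0 members for T6 over T0, 1 for T48 over T0 and 2 for T48 over T6, where it called 0.000202%, 0.0143% and 0.0127% of all pairs tested. All of these members were lower at T48. The member called in both comparisons joined bins centred at 145,177,500 and 147,177,500 on chromosome 4, in focal windows. Its counts were 148 and 80 in T0, 110 and 80 in T6, and 14 and 22 in T48. Both T48 libraries were below all 4 others. In edgeR its T48 over T0 log2 ratio was -2.49 (SE 0.35, adjusted p = 0.326), and in DESeq2 it was -2.47 (SE 0.47, adjusted p = 0.00179). The other, bins centred at 85,102,500 and 87,502,500 on chromosome 1, had 266 and 118, 274 and 342, and 104 and 95 counts, and its T48 over T6 log2 ratio was -1.83 in DESeq2 (adjusted p = 0.0271) and -1.83 in edgeR (adjusted p = 0.83). DESeq2 gave an adjusted p to 207 of the 1055 members for T48 over T0 and to 177 for T48 over T6, so the others were not judged by it.

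Another 3 members with the lowest edgeR p-values for T48 over T0 are named, chosen after their values were seen. The pair centred at 75,342,500 and 78,372,500 on chromosome 9, outside focal windows, had counts of 37 and 20 in T0, 28 and 16 in T6, and 8 and 4 in T48. Its log2 ratio was -2.11 (SE 0.26, edgeR adjusted p = 0.281). The pair centred at 145,137,500 and 148,987,500 on chromosome 4 had 57 and 55, 29 and 34, and 3 and 4, with a log2 ratio of -3.87 (SE 0.59, edgeR adjusted p = 0.351). On chromosome 11 the pair centred at 84,792,500 and 86,857,500 had 21 and 12, 10 and 9, and 3 and 3, with a log2 ratio of -2.30 (SE 0.40, edgeR adjusted p = 0.463). In each of these the T48 libraries had lower counts than the T0 libraries, and none passed the adjusted threshold.

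The scattered contacts listed at all 3 times with the highest geometric mean count over the 6 libraries are named next. The first joined 14,920,001 to 14,925,000 and 16,970,001 to 16,975,000 on chromosome 5, with 47 and 168 counts in T0, 70 and 155 in T6, and 59 and 108 in T48. Replicate 2 was the higher library at each time, and the times overlapped. The second, 58,535,001 to 58,540,000 with 67,645,001 to 67,650,000 on chromosome 6, lay 9.11 Mb apart and had 91 and 61, 112 and 62, and 68 and 48. The third, on chromosome 10 (82,075,001 to 82,080,000 with 85,275,001 to 85,280,000), had 97 and 47, 78 and 39, and 94 and 45. Here replicate 1, which had the larger listed total, was the higher library at each time. The same bins of chromosome 10, shifted by 5 kb, also met 86,150,001 to 86,155,000, with 80 and 57, 65 and 50, and 65 and 47 counts.

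Of the 10 contacts so named, the 2 furthest from 0 between T0 and T48 moved in opposite directions and did not pass the test. The pair of 27,060,001 to 27,065,000 with 34,020,001 to 34,025,000 on chromosome 17 had 84 and 82 counts in T0, 85 and 60 in T6, and 35 and 47 in T48. Its T48 over T0 log2 ratio was -0.92 (SE 0.38, edgeR adjusted p = 0.895). The pair of 45,125,001 to 45,130,000 with 52,245,001 to 52,250,000 on chromosome 14 had 49 and 39, 69 and 36, and 110 and 46 counts, with a log2 ratio of 0.86 (SE 0.27, edgeR adjusted p = 0.849). The adjusted p over the alternatives was 0.344 to 1.00 for the first and 0.459 to 1.00 for the second.

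Scattered contacts listed at 1 time were ranked by their smaller replicate, as a multiple of the lowest listed count, and the leading ones had low counts. The other replicate was higher in some of those ranked below: 12 and 37 at T6 on chromosome 5, and 9 and 26 at T48 on chromosome 10. Contacts listed at 1 time in focal windows were not ranked. The leading T0 contact, 108,810,001 to 108,815,000 with 114,950,001 to 114,955,000 on chromosome 4, had 12 and 16 counts. The leading T6 contact, 7,610,001 to 7,615,000 with 13,350,001 to 13,355,000 on chromosome 17, had 15 and 24. The leading T48 contact, 19,970,001 to 19,975,000 with 22,060,001 to 22,065,000 on chromosome 8, had 11 and 11, and the next, on chromosome 13 (108,025,001 to 108,030,000 with 116,340,001 to 116,345,000), had 10 and 12. The leading T6 contact and the leading T48 contact each lay inside the bounds of a patch of contacts listed at all 3 times, on chromosomes 17 and 8, so there the bin pair was listed once and its surroundings throughout.

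The highest counts of all were on chromosome 1 between 84 and 88 Mb. In this region 1245 members were listed, 806 in T0, 773 in T6 and 769 in T48, of which 401 were listed at all 3 times and 543 at 1 time. They joined 112 bins on the left to 83 bins on the right. This region held 20.1% and 49.8% of the count of all members in T0, 21.3% and 53.03% in T6, and 13.6% and 46.7% in T48. Replicate 2 had the larger share at each time, and no time stood apart. The top pair by geometric mean, 85,270,001 to 85,275,000 with 87,485,001 to 87,490,000, had 1299 and 1355 counts in T0, 1377 and 1468 in T6, and 997 and 1711 in T48. Its T48 over T0 log2 ratio was 0.16 (SE 0.55, edgeR adjusted p = 1.00). The next bin to the right of it, centred at 87,492,500, had 621 and 2057, 654 and 2290, and 496 and 2473 counts with the same left bin.

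Within this region the gap between replicates varied by pair. The pair centred at 85,087,500 and 87,517,500 had 44 and 1362 counts in T0, 47 and 1295 in T6, and 25 and 1439 in T48, so replicate 2 was the higher by far at each time. Of the 401 pairs listed at all 3 times, 347 (86.5%) had more counts in replicate 2 at every time, against 116 of the 463 scattered contacts listed at all 3 times. The listed total of replicate 2 was the smaller at each time, which is the opposite order.

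Other focal windows paired off in the same way. On chromosome 4, 186 of the 205 members with an anchor from 145,000,001 to 146,000,000 met the window from 147,000,001 to 148,000,000. On chromosome 7, 308 of the 433 members with an anchor from 39,000,001 to 40,000,000 met the window from 46,000,001 to 47,000,000. On chromosome 1, 116 of the 133 members with an anchor from 46,000,001 to 47,000,000 met the window from 53,000,001 to 54,000,000. The windows of chromosomes 12 and 14 met several partners: 33.6% of the members at 18,000,001 to 19,000,000 on chromosome 12 met their main partner window. The log2 ratio of replicate 2 over replicate 1, as shares of the listed count, was 0.07 to 0.44 over the times in both windows of chromosome 8 and 3.84 to 4.06 at 84,000,001 to 85,000,000 on chromosome 1, so the replicate gap differed widely between windows.

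Contacts listed at all 3 times lay close together in the map. Linking pairs within 50 kb on both sides gave 43 patches of at least 5 pairs, which held 895 of the 1257 pairs (71.2%). Of the 43 patches, 19 had their highest pair in a focal window and 24 did not. The largest had 399 pairs, at 84,955,001 to 85,345,000 with 87,345,001 to 87,660,000 on chromosome 1. The patches were formed on counts and lists at all times, so their level is a description.

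The shape of a patch says how the bins of both sides match. In 14 patches both sides spanned at least 50 kb, and the correlation of the left and right positions, weighted by count, was at least 0.9 in 4 and at most -0.9 in 5. The first kind runs at a constant separation, with both sides in the same order. On chromosome 7 the patch of 34 pairs at 39,060,001 to 39,215,000 with 46,440,001 to 46,590,000 had a correlation of 0.96, and its separation had a weighted SD of 9.31 kb while the sum of both positions had one of 65.2 kb. A second patch beside it, with 15 pairs, had a correlation of 1.00. The other 2 of this kind were on chromosome 17, with 0.98 over 6 pairs and 1.00 over 5 pairs, so these values rest on few points.

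The second kind runs the other way, with the left side moving up as the right side moves down. On chromosome 3 the patch of 22 pairs at 28,745,001 to 28,860,000 with 31,510,001 to 31,620,000 had a correlation of -0.97, with a weighted SD of 60.9 kb for the separation and 7.63 kb for the sum. On chromosome 12 the patch of 20 pairs at 18,250,001 to 18,390,000 with 25,050,001 to 25,145,000 also had -0.97. The other 3 lay in a row on chromosome 1, from 46,445,001 to 46,875,000 on the left and from 53,440,001 to 53,800,000 on the right. They had 16, 7 and 6 pairs, with correlations of -0.996, -0.99 and -0.98. The midpoints of their highest pairs were 50,122,500, 50,142,500 and 50,157,500, so the 3 patches fell near a common centre. In the largest patch of chromosome 1 the correlation was 0.02. Whether segments of similar sequence or a rearranged chromosome underlie these shapes was not tested.

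**Figure D4:**
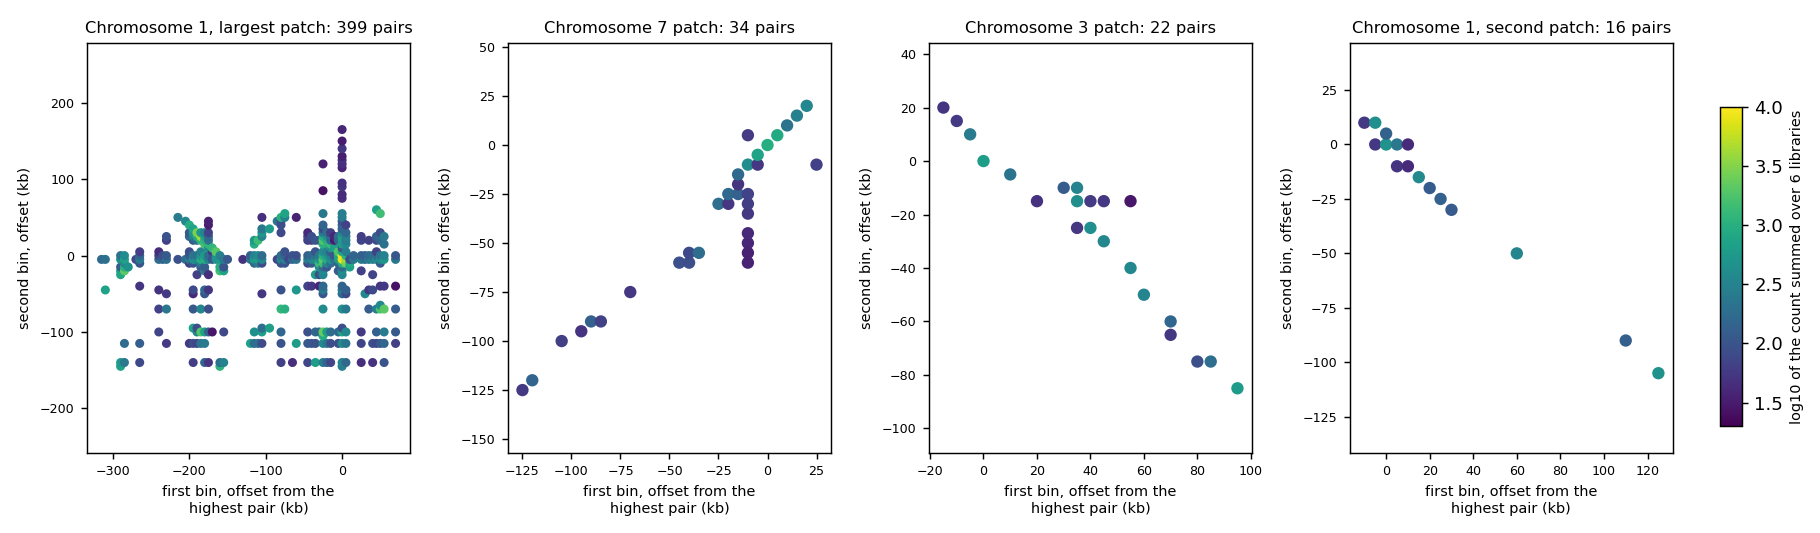
Bin pairs of 4 patches listed at all 3 times, plotted by the offset in kb of the left bin (x axis) and the right bin (y axis) from the patch's highest pair, coloured by the log10 of the count summed over 6 libraries. The patch of chromosome 7 (34 pairs) runs upwards, those of chromosome 3 (22 pairs) and the second of chromosome 1 (16 pairs) run downwards, and the largest, with 399 pairs on chromosome 1, fills a grid.

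Most patches had a lower mean at T48 than at T0, but the largest did not. Patch counts are given as CPM, relative to the library's summed count of the autosomal pairs listed at all 3 times. The log2 ratio of the T48 over the T0 mean ran from -1.003 to 0.48 over the 43 patches, with a median of -0.20, and was below 0 in 31 and above 0 in 12. Compared within each replicate number, 21 patches were lower at T48 in both replicates, 6 were higher in both and 16 differed in direction. The lowest was the patch of 9 pairs on chromosome 6 at 58,535,001 to 58,555,000 with 67,620,001 to 67,650,000, with 10.6 and 36.8 CPM in T0, 17.8 and 42.3 in T6, and 6.54 and 17.1 in T48. The T0 and T48 values overlapped, and T48 was lower within each replicate number. The highest was the patch of 11 pairs on chromosome 8 at 19,970,001 to 19,980,000 with 22,040,001 to 22,155,000, with 2.21 and 4.77, 2.28 and 5.28, and 2.94 and 6.82 CPM. Replicate 2 was above replicate 1 at each time in 37 of the 43 patches and below it at each time in 2.

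In 4 of the 43 patches both T48 libraries lay below both T0 libraries, and in 0 both lay above. Among single autosomal pairs listed at all 3 times, 17.9% lay below in this way and 17.6% above. The largest of the 4, with 22 pairs on chromosome 8 at 28,405,001 to 28,465,000 with 31,285,001 to 31,325,000, had 27.2 and 34.05 CPM in T0, 30.4 and 41.3 in T6, and 23.8 and 24.8 in T48. The others, on chromosomes 4, 5 and 11, had log2 ratios of -0.43, -0.29 and -0.14. No test was made of patches.

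Some patches had nearly equal replicates. The patch of 12 pairs on chromosome 11 at 111,810,001 to 111,820,000 with 119,110,001 to 119,160,000 had 9.44 and 9.78 CPM in T0, 8.29 and 9.54 in T6, and 8.28 and 9.21 in T48. The patch of 10 pairs on chromosome 10 at 82,065,001 to 82,095,000 with 85,275,001 to 85,300,000 had 9.95 and 11.6, 10.3 and 11.4, and 10.2 and 10.2. In both the replicates lay far closer together than in the chromosome 1 patch of 399 pairs, with 338 and 2717, 384 and 3247, and 327 and 2985 CPM.

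The bins that anchor repeated contacts had lower counts of shorter contacts. For each bin the counts of all listed pairs under 2 Mb were summed. Over all 358,176 autosomal bins the median sum was 255 and 150 in T0, 206 and 115 in T6, and 227 and 152 in T48. Over the 538 anchor bins of contacts in focal windows listed at all 3 times it was 35 and 43, 33.5 and 41, and 45.5 and 40. Over the 644 anchor bins of scattered contacts listed at all 3 times it was 141 and 71.5, 107 and 59, and 124 and 77.5, which is 0.477 to 0.553 times the median of all bins. Anchors of scattered contacts listed at 1 time were close to all bins, at 0.854 to 0.965 times the median. A bin within 25 kb of a stretch of at least 5 unlisted bins was found in 2.27% of all bins, 4.46% of the anchors in focal windows and 8.70% of the scattered anchors, for contacts listed at all 3 times. Coverage or mappability of the bins was not tested.

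**Figure D5:**
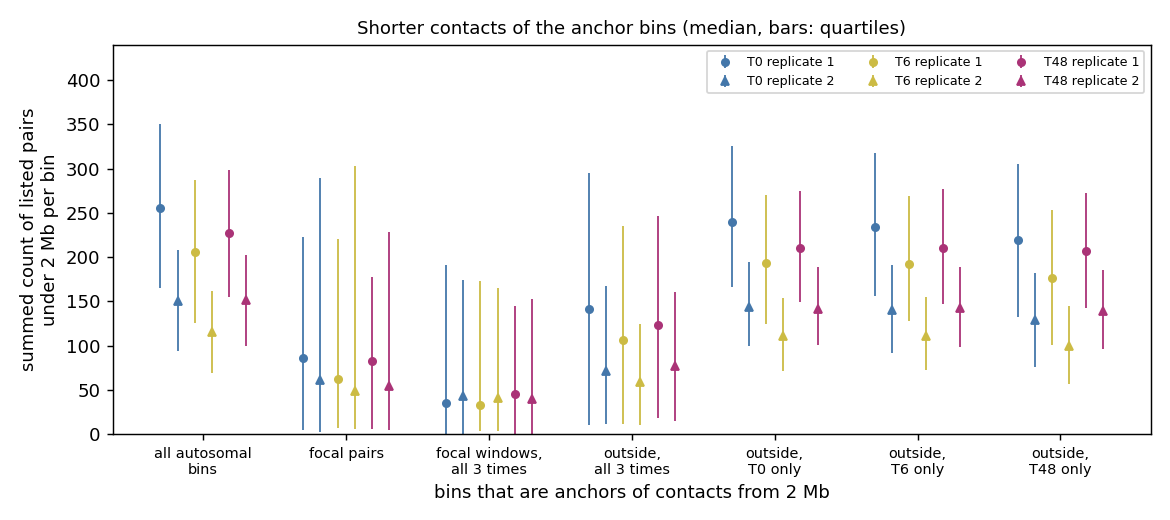
Summed count of the listed pairs under 2 Mb (y axis) of bins that anchor contacts from 2 Mb, by group of contacts (x axis), as median and quartiles over bins for each of the 6 libraries. Anchors of contacts listed at all 3 times lie low (T0 replicate 1: 35 in focal windows and 141 outside), and anchors of contacts listed at 1 time lie near all bins (240 for T0 only against 255).

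Most bins had a lone scattered contact. Of 38,198 anchor bins outside focal windows, 78.3% had 1 contact and 42 had at least 10. A bin of chromosome 4, 18,910,001 to 18,915,000, stood apart with 303 contacts, 137 in T0, 104 in T6 and 194 in T48, of which 37 were listed at all 3 times. Its partners lay on both sides, 88 upstream and 215 downstream, at a median distance of 5.235 Mb. Its summed count over these contacts was 759 and 856 in T0, 627 and 606 in T6, and 1228 and 1260 in T48. Both T48 sums were above the 4 others, but the sums follow the listed numbers. A pair is listed in both replicates of a time or in neither, so the replicates do not give separate support for this order. The bin's pairs under 2 Mb summed to 197 and 215, 147 and 116, and 315 and 335, in the same order over the times. These sums are bound to the lists in the same way. The next bin, 19,975,001 to 19,980,000 on chromosome 8, had 51 contacts, of which 24, 19 and 32 were listed at the 3 times. A bin of chromosome 1, 26,740,001 to 26,745,000, had 32, with 7, 4 and 23. The other 2 of the 5 leading bins were not highest at T48: 22,830,001 to 22,835,000 on chromosome 12 had 28 contacts, with 15, 13 and 10, and 139,010,001 to 139,015,000 on chromosome 5 had 26, with 17, 11 and 16.

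Some pairs of 1 Mb windows outside focal windows differed in their number of contacts between T0 and T48. These were chosen after their values were seen, from 7915 window pairs of which 50.1% had 1 contact. Between 67,000,001 to 68,000,000 and 69,000,001 to 70,000,000 on chromosome 7 there were 37 contacts in T0, 38 in T6 and 13 in T48, with summed counts of 200 and 155, 241 and 149, and 62 and 51. Only 1 of the 75 bin pairs seen there was listed at all 3 times. Between 3,000,001 to 4,000,000 and 6,000,001 to 7,000,000 on chromosome 3 there were 6, 9 and 34, with summed counts of 23 and 18, 32 and 30, and 161 and 129. Between 102,000,001 to 103,000,000 and 105,000,001 to 106,000,000 on chromosome 10 there were 6, 8 and 29. In each of these 3 window pairs the T0 and T6 numbers were close and the T48 number stood apart. Their sums follow the listed numbers by which they were picked, since an unlisted pair adds 0 in both replicates. The largest rise in number was between 19,000,001 to 20,000,000 and 22,000,001 to 23,000,000 on chromosome 8, with 68, 63 and 104. No test was made of these window pairs, since they were picked for their size.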

How the data were processed

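The authors deposited raw counts of read pairs for pairs of 5 kb bins in each of 6 libraries, per the file headers. Build mm9, Bowtie2 and CASAVA 1.8.2 are named in the data processing, per the submitters' processing notes. Of the caller, its threshold, the restriction enzyme and any coverage correction, nothing is stated (not given in the sources used here). Sample titles gave the groups and replicate numbers. All columns were used. The members and the lists of windows were chosen with earlier results of these data known.

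Shares are of the listed autosomal count. Strength was tested with edgeR 4.0.16 in R 4.3.3 (TMM, filterByExpr, quasi-likelihood fit of all 6 libraries, Benjamini-Hochberg over all nuclear pairs listed at all 3 times), and DESeq2 1.42.0 was an alternative. The edgeR fit and the search for focal windows were checked on simulated data. The simulated counts for the fit had little spread and no gap between replicates, so that check does not bear on power for these contacts. Group means were compared by exact permutation tests (scipy 1.17.1). Named contacts were the 10 with the highest geometric mean listed at all 3 times, the 5 leading contacts per time listed once, the 5 bins with the most contacts (each at most 1 per 1 Mb window or window pair, all outside focal windows), and up to 10 focal windows. The text gives the first of each. Patches, window pairs and the members with the lowest p-values were added after the data were seen. The alternatives tried are given with the closing observations.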

Additional observations from a re-analysis of the deposited data

How the results depend on the processing

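The T6 to T0 ratio of listed numbers was 0.889, and 0.952 with the stricter list. The T48 to T0 ratio was 1.504, 1.55 from 1.5 Mb, 1.46 from 3 Mb, 1.18 with the stricter list and 1.63 without focal windows. Of T0 contacts, 18.99% were also listed at T6, 25.6% within 1 bin, 31.1% within 5, 43.0% within 20 and 9.19% without focal windows. For T48 the shares were 17.3%, 25.02%, 32.3%, 47.9% and 8.92%. The T48 minus T6 difference in the share of listed count was -0.00531 percentage points and turned positive without focal windows (0.0434) and over pairs from 20 kb (0.0471). T48 minus T0 was 0.056, 0.000361 (exact permutation p = 1) over pairs listed at all 3 times only and 0.227 over pairs from 20 kb. Leaving out 1 replicate number gave -0.0447 to 0.0341 for it, 0.0207 to 0.102 for T6 minus T0 and 0.0548 to 0.0571 for T48 minus T0. Groups share only replicate numbers, yet the replicate 2 minus replicate 1 difference in log2 CPM correlated between times over contacts listed at all 3 times (r = 0.78 to 0.84, n = 1257 contacts). With a replicate block, T48 minus T0 stayed 0.056 (exact permutation p = 0.5), and edgeR called 0 members in each comparison, while at an unadjusted p under 0.05 it gave 122 members (11.6%, against 4.63% of all pairs) for T6 over T0, 191 (18.1%, against 7.83%; 129 lower) for T48 over T0 and 247 (23.4%, against 7.21%; 189 lower) for T48 over T6. DESeq2 called 1 for T48 over T0 and 2 for T48 over T6, against 0 by edgeR. Without any 1 library edgeR called 0 members. Focal windows numbered 19, 41 at 5 times the lowest count and 2 at 20 times. Linking within 25 or 100 kb, chosen after the data were seen, gave 44 patches each, against 43. The comparison of gene lists at anchors was not run, since no mm9 annotation was used here. Counts of 3 and 4 limit what an unlisted contact shows, and sequencing depth is unknown.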

Other observations

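Chromosome X was outside the rule for these contacts. It held 3501 pairs from 2 Mb, of which 1047 were listed in T0, 803 in T6 and 1734 in T48, and 23 were listed at all 3 times. These were 1.06%, 0.923% and 1.74% of the chromosome X pairs listed at each time, and the T48 to T0 ratio of listed numbers was 1.66. The numbers have no replicate error and were not tested.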
